A study of Mus musculus with 4 samples.

Results

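In RAW macrophages treated with methyl-β-cyclodextrin (MCD), 1157 intervals of the mouse genome gained accessibility away from promoters without holding an AP-1 or a κB site. They are 1157 of the 3812 intervals that the authors called changed, and 1157 of the 2489 gained intervals that lie over 3 kb from a transcription start site (TSS). An interval was taken when its mean in MCD-treated cells was above its mean in control cells, when its nearest edge lay over 3 kb from each TSS of transcripts with an Entrez identifier, and when its reference sequence held neither consensus on either strand. The AP-1 consensus was TGACTCA, which reads TGAGTCA on the other strand, and κB stands for the loose κB consensus. These intervals were therefore chosen by the measured difference between the 2 condition means and by their sequence, and are called the members.

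AP-1 is a dimer of basic leucine zipper proteins of the Fos, Jun and ATF families, and with NF-κB it opens many enhancers of stimulated macrophages. The macrophage enhancer repertoire is laid down by lineage factors, chief among them PU.1, an ETS protein that binds a purine-rich sequence called the PU box. Stimulus-dependent factors bind there or open further sites, and their binding tolerates sequences that differ from the consensus.

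ATAC-seq, which reads open chromatin through insertion of sequencing adapters by a transposase, was run on 4 samples of RAW264.7 macrophages (RAW 267.4 in the labels), a mouse macrophage line from a virus-induced leukaemia. The 2 control samples received no treatment, and the 2 MCD samples received 5 mM MCD, a cyclic sugar that extracts cholesterol from membranes, for 1 hr in medium with bovine serum albumin. For the control samples the labels name no vehicle. The study asked whether a loss of cholesterol alone changes the chromatin of macrophages.

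The authors deposited 1 mean per condition and interval, on the log2 scale of normalized reads, for the intervals they called changed. Values of the single samples were not used here, so no spread between replicates, no n and no test accompanies a mean, and the depth per sample is unknown from these values. A higher mean can come from more cells with an open site or from a more open site in each cell, which cannot be told apart. The intervals given with shares are 95% Wilson intervals and those with medians are order-statistic intervals. Both cover counting error over genomic intervals that come from the same 4 samples and are no replicates. The table lists changed intervals alone, so the level of macrophage genes could not be used to check the cell line. Of 11 macrophage marker genes, Ptprc and Cd36 were nearest to a member, beside 4.01% of all genes. A gained interval of any kind was at 3 of the 11 and a lost one at 6. The shares of all genes with a gained or with a lost interval were not counted. Such counts, here and in the gene lists below, are therefore not read as high or low. Of 11 lymphoid and stromal marker genes 0 were nearest to a member, with a lost interval at 1.

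The sequences of 4 members among the 10 with the largest differences show what the intervals look like. Each is 201 bp of GRCm38, plus strand, and capitals mark the words whose examples follow.
Phlda1 region, chr10:111510163-111510363: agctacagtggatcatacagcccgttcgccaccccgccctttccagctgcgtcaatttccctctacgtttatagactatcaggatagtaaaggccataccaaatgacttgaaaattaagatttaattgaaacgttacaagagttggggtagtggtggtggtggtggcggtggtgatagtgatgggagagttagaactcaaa
Eea1 region, chr10:96094066-96094266: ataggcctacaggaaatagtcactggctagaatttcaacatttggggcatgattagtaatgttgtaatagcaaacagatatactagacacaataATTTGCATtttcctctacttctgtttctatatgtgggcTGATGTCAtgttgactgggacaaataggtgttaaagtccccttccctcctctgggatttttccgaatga
Trh region, chr6:92290999-92291199: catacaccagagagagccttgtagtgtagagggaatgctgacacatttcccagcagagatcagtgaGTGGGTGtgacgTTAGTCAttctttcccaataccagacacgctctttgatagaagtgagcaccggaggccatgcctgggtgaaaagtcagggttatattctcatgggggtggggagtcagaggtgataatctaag
Slc11a2 region, chr15:100411291-100411491: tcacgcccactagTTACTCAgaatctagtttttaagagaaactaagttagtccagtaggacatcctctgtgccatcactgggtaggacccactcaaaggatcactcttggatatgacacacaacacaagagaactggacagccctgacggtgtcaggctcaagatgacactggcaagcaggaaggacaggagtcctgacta
The Phlda1 interval holds none of the marked words. On its minus strand it holds TGACGCA, an unmarked word that differs from the AP-1 consensus in a single base. The Eea1 interval holds an octamer and a CRE-like word, and the Trh interval a C-rich word and a near-AP-1 word. The Slc11a2 interval holds a near-AP-1 word close to its edge.

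Near-AP-1 words are a single base change away from the AP-1 consensus, and 3 of them, grouped after their values were seen, were together in 408 members. Sites of the 3 leading words are shown with 17 bases on both sides, read on the strand that carries the word, with the word in capitals. The words keep one arm of the AP-1 palindrome and change a base of the other arm or of its centre.
Trh region, chr6:92291060-92291100, minus strand: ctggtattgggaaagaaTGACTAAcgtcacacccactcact
Asb7 region, chr7:66576303-66576343, minus strand: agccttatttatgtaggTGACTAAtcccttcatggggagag
Peli1 region, chr11:21013290-21013330, plus strand: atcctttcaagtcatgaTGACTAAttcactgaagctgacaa
Cited2 region, chr10:16527804-16527844, plus strand: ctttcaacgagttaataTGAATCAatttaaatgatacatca
Cd44 region, chr2:102833144-102833184, plus strand: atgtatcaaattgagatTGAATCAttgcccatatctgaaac
Csgalnact1 region, chr8:68740234-68740274, minus strand: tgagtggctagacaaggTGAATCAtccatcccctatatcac
Slc11a2 region, chr15:100411287-100411327, minus strand: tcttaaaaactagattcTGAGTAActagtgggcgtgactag
Hpcal4 region, chr4:123164249-123164289, plus strand: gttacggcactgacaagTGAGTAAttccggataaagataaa
Plxnc1 region, chr10:95085916-95085956, minus strand: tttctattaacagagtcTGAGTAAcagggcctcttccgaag
Beyond the word, the neighbouring bases differed between these regions.

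Other words were frequent in the members too, and some share letters with the AP-1 consensus. The C-rich word CACCCAC resembles the sequences bound by Krüppel-like and other zinc finger factors, the octamer ATGCAAAT is the classical site of POU factors, and TGACATCA differs by a single base from the CRE, TGACGTCA, the site of CREB and ATF dimers. Examples are shown in the same layout.
1700029N11Rik region, chr13:44321249-44321289, minus strand: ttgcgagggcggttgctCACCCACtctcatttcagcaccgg
1700123O21Rik region, chr16:5735401-5735441, plus strand: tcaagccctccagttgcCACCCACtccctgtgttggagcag
Eea1 region, chr10:96094143-96094184, minus strand: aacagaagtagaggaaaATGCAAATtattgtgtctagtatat
Gm7168 region, chr17:13926075-13926116, plus strand: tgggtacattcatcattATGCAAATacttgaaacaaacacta
Eea1 region, chr10:96094181-96094222, minus strand: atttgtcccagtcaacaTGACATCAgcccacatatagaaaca
Gm7168 region, chr17:13926144-13926185, plus strand: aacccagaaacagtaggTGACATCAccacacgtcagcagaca
Anxa2 region, chr9:69467867-69467908, plus strand: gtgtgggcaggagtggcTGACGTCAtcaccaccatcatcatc
Thbs4 region, chr13:92804488-92804529, plus strand: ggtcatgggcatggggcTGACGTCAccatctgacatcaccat
The Eea1 and Gm7168 intervals each carry both an octamer and TGACATCA.

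In the control cells the members were weakly accessible. The authors' control means had a median of 26.4 normalized reads, or 4.72 on the log2 scale (interval 4.62 to 4.86), and ran from 1.70 to 7.80. After MCD the median was 74.0 normalized reads, or 6.21 on the log2 scale (6.13 to 6.29), and the range was 4.67 to 8.32. The differences, MCD minus control, had a median of 1.43 on the log2 scale (1.38 to 1.48), with quartiles at 1.07 and 1.87. Since the rule asked for a positive difference, its direction is no finding, and 73.2% of all intervals of the table were gained. A difference of at least 1 was reached by 919 members (79.4%), beside 57.3% of all intervals. Differences of at least 2 were seen in 203 members (17.5%) beside 11.6%, and of at least 3 in 12 members (1.04%) beside 0.472% of all intervals. Among the members, 96 (8.30%) had a control mean under 8 normalized reads, and their median difference was 2.33. At the other end, 220 members had at least 64 reads in control and a median difference of 0.82. No member had an MCD mean under 4.67 on the log2 scale, so one with few control reads must have a large difference. This inverse link is thus set at least in part by which intervals are listed, and is not read as a finding.

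**Figure D1:**
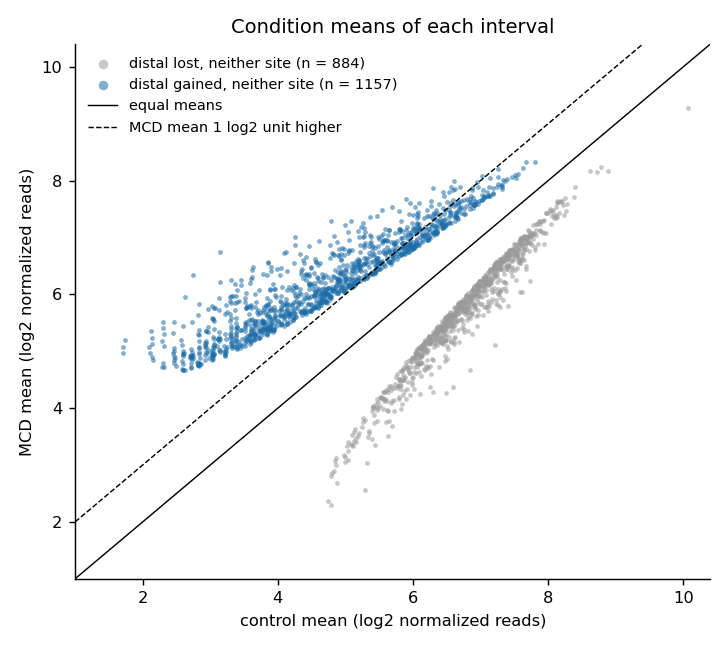
The authors' control mean (horizontal axis) and MCD mean (vertical axis), both in log2 normalized reads, for the 1157 members (blue) and the 884 distal lost intervals without either site (grey). The solid line marks equal means and the dashed line an MCD mean 1 log2 unit higher. Members with few control reads lie farthest above the line of equal means. No member has an MCD mean under 4.67, which sets this in part. The empty band along the line of equal means is where the table lists no interval.

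The levels differed little from those of the other distal gained intervals. The 1171 intervals with an AP-1 site had medians of 4.86 in control and 6.28 after MCD, and a median difference of 1.40 (1.37 to 1.44). For the 161 intervals with a κB site and no AP-1 site, the median difference was 1.46 (1.34 to 1.61). The interval of the members' median overlaps both. The shares with a difference of at least 1 were 79.4% in the members, 79.6% with AP-1 and 82.6% with κB. The distal lost intervals without either site, used as a sequence comparison, started from a higher control median of 6.80 and ended at 5.80.

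At the thresholds of the rule, values were as follows. The members nearest to the 3 kb limit lay 3052 bp from the TSS of Dnttip1, 3077 bp from Acbd7 and 3094 bp from Cxcl2, with differences of 1.93, 1.78 and 0.79. Just past it, gained intervals lay 2940 bp from Mtpn, 2826 bp from Shisal2a and 2796 bp from Olfr432, with differences of 1.25, 1.69 and 0.89. The smallest positive differences among the members were 0.52 near Mrpl33, 0.52 near Tubd1 and 0.53 near Trim56. On the other side of 0, the lost intervals with the smallest change were -0.44 near Cttnbp2nl, -0.49 near Rapgef2 and -0.51 near Egr3.

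The largest differences belonged to intervals with very few control reads, where the lowest MCD mean of the members already requires a large one. The interval at chr13:44321237-44321437, intergenic and 118299 bp upstream of the TSS of 1700029N11Rik, went from 6.67 to 81.1 normalized reads, a difference of 3.60. The Phlda1 interval, intergenic and 3877 bp downstream of the start of this immediate early gene, went from 8.83 to 106.8 reads, also a difference of 3.60. It had the highest MCD mean of the 10 largest differences. A Cyp51 interval at chr5:4036849-4037049, in an intron of the neighbouring Akap9, rose from 3.34 to 36.6 reads. Repeat masking covers 64.2% of it, the most among these 10, and its match to CACCCAC lies in a run of a short repeat. The other 7 lay near 1700123O21Rik, Spdye4c, Eea1, Cited2, Zyg11b, Trh and Slc11a2, with differences of 3.09 to 3.37 and control means of 3.25 to 6.15 reads.

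The most accessible members after MCD were already open in control. At chr3:95293674-95293874, in an intron of Mindy1, a deubiquitinase gene, the mean was 203.5 reads in control and 320.2 after MCD. An interval in an exon of Vmp1, nearest to the TSS of Tubd1, had 222.6 and 319.4 reads. The intervals near Tmem252, Gm4832 and Borcs5 had 277.5 to 299.6 reads after MCD, and the Gm4832 interval, at 153.3 reads in control, holds a CRE. Differences of these 5 were between 0.52 and 0.94.

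A leading near-AP-1 word was present in 408 members (35.3%, interval 32.6 to 38.1). The words were taken from a ranking of all 8192 possible 7-letter words, merged with their reverse complements, by the difference in share between the members and the 884 distal lost intervals without either site, so these shares describe the choice. TGACTAA led both rankings, with 190 members (16.4%) against 9 lost intervals (1.02%). TGAATCA was in 158 members (13.7%) and 12 lost intervals (1.36%). TGAGTAA was in 113 members (9.77%) and 12 lost intervals (1.36%). Of the lost intervals, 33 (3.73%, interval 2.67 to 5.20) held at least 1 of the 3. In 12031367 windows of 201 bp from the whole genome without AP-1 and κB sites, 7.77% held 1, and the shares of single words were 2.51% to 2.95%. The windows were not matched for base composition, and their median GC content was 41.8% against 47.3% in the members (46.8 to 48.3) and 46.8% in the lost intervals.

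Gained intervals that took no part in the ranking held the same words. In the 159 gained intervals within 3 kb of a TSS that lack both sites, 39 (24.5%, interval 18.5 to 31.8) held a leading near-AP-1 word, and in the 76 lost ones there, 7 did (9.21%, 4.53 to 17.8). Distal gained intervals with an AP-1 site held them too, in 314 of 1171 (26.8%, 24.4 to 29.4), beside their consensus. Those with κB alone did so in 44 of 161 (27.3%, 21.03 to 34.7). Since the words were chosen on the members, their 35.3% is not compared with these shares.

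**Figure D2:**
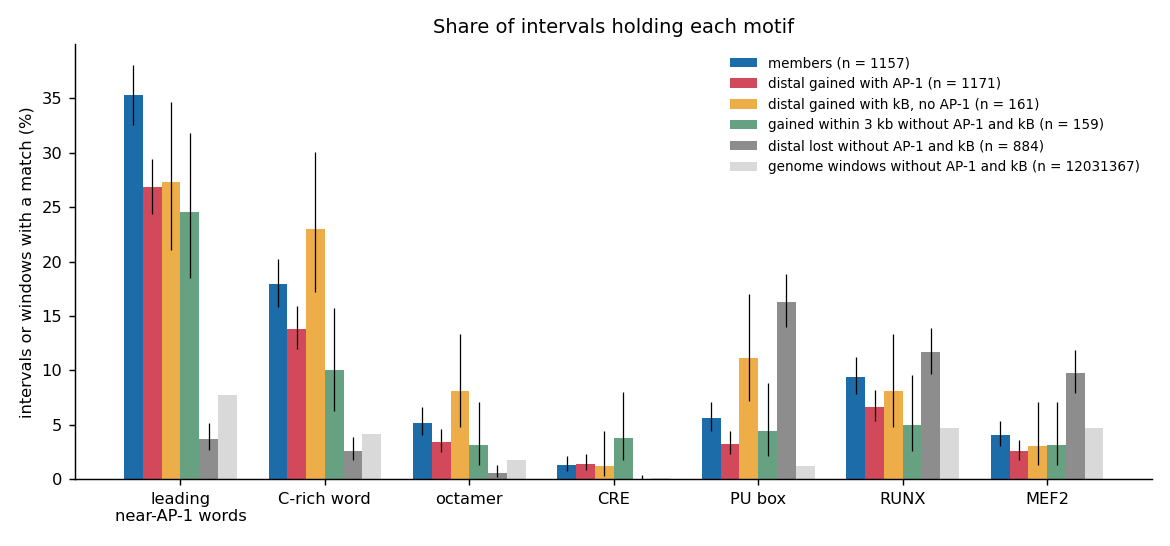
Share of intervals or genome windows (vertical axis, percent) that hold each motif at least once, for the members, 4 other groups of intervals and genome windows. Black lines are 95% Wilson intervals, absent for the windows. The leading near-AP-1 words are in 35.3% of the members and 3.73% of the distal lost intervals, while the PU box is in 5.62% and 16.3%.

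Not each sequence close to AP-1 followed this pattern. All 19 words that differ from the AP-1 consensus in 1 base were counted, and 17 had a larger share in the members than in the lost intervals. Beside the leading 3, TGACACA was in 133 members (11.5%) and 36 lost intervals (4.07%). For the other 15 the difference in share was at most 2.54 percentage points, seen for TGACGCA with 32 members and 2 lost intervals. TGAGGCA and TGAGACA were slightly less frequent in the members. Together the 19 words were found in 791 members (68.4%, interval 65.6 to 71.0) and in 350 lost intervals (39.6%), beside 42.4% of the genome windows. The AP-1 group held at least 1 of them in 66.7% (63.9 to 69.3) and the κB group in 63.4% (55.7 to 70.4), with overlapping intervals. Of the 408 members with a leading word, 356 held 1 of the 3, 51 held 2 and 1 held all.

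The leading words were nearer to the centre of the interval. Among 501 matches in the members, 139 lay within 20 bp of the centre and 65 between 80 and 97 bp, which is 3.003 against 1.65 matches per 10 bp and 100 intervals. Split into 3 stretches of 67 bp, TGACTAA was in the central stretch of 89 members, against 41 in the left and 55 in the right one. For TGAATCA the counts were 70, 46 and 41, and for TGAGTAA 42, 26 and 34. The AP-1 consensus of the AP-1 group also declined outwards, from 7.98 matches per 10 bp and 100 intervals within 20 bp of the centre to 3.77 at the edge. CACCCAC was in the central stretch of 70 members, with 57 and 77 in the outer ones. Repeat masking touched at least 1 base in 13.6% of the leading-word matches and 26.8% of the CACCCAC matches. The share of masked bases per member had a median of 10.9%, with quartiles at 0% and 22.4%. It is another measure and is not compared with the shares of matches.

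**Figure D3:**
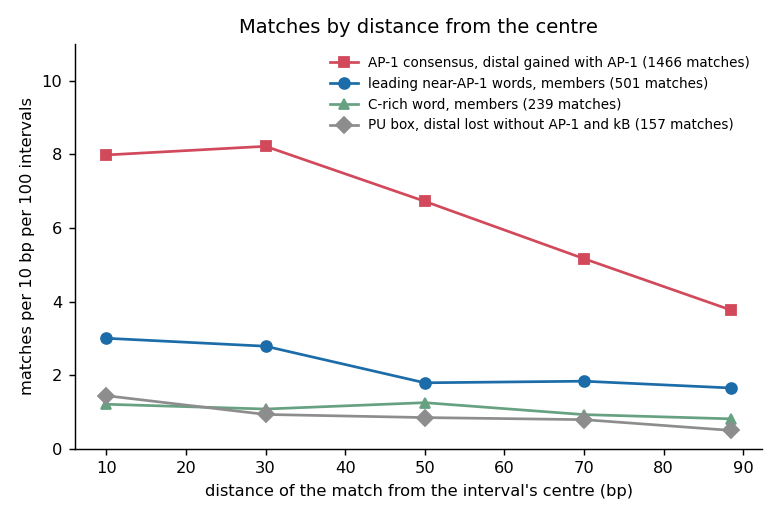
Matches per 10 bp per 100 intervals (vertical axis) against the distance of the match from the interval's centre in bp (horizontal axis). Blue circles, the leading near-AP-1 words in members, fall from 3.003 to 1.65, and red squares, the AP-1 consensus in the AP-1 group, from 7.98 to 3.77.

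An AP-1 consensus just outside the interval was also frequent. The rule read only the interval, and within 200 bp on either side of it 302 members (26.1%, interval 23.7 to 28.7) held the consensus. The same was true of 191 intervals of the AP-1 group (16.3%, 14.3 to 18.5), 29 of the κB group (12.8% to 24.7%) and 47 of the lost group (5.32%, 4.02 to 6.999). Within 100 bp the members' share was 21.4%, and 43 members (3.72%) had it within 10 bp of their edge. In the lost group 0 of 884 had one within 10 bp, with an upper limit of 0.433%. Of these 302 members, 0 had another distal gained AP-1 interval within 200 bp. In the members and in the AP-1, κB and lost groups, 0 intervals had any other listed interval that close. The count therefore follows from the spacing of the listed intervals and tells nothing of these flanking sites. A flanking site without a leading near-AP-1 word was found in 220 members (19.0%). Their control median was 34.1 reads (26.6 to 41.0), beside 26.4 (24.6 to 29.0) over all members, with overlapping intervals.

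With both features counted, 628 members (54.3%, interval 51.4 to 57.1) held a leading near-AP-1 word or had an AP-1 consensus in the flank. This share was 38.3% in the AP-1 group, 41.0% in the κB group and 8.94% in the lost group. Because the words were chosen on the members against the lost intervals, the 54.3% is not compared with these shares. Another 181 members (15.6%) held only CACCCAC, an octamer, TGACATCA, a CRE or a CRE variant, which is TGACGTAA or TGACGCAA. The remaining 348 (30.1%, 27.5 to 32.8) had none of these. Their levels were the lowest, with a median of 23.7 reads in control and 68.5 after MCD, and their median difference was 1.48, against 1.42 in the members with a leading near-AP-1 word and 1.32 in those with a flanking site alone.

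CACCCAC was the most frequent single word among those ranked highest, in 207 members (17.9%, interval 15.8 to 20.2). It was in 23 lost intervals (2.60%) and in 4.17% of the genome windows without both sites. The AP-1 group held it in 13.8% and the κB group in 23.0%. Other words with a high rank, CCCACAC and ACCCACA, overlap it by several letters. It was not tied to the near-AP-1 words, since 66 of its 207 holders (31.9%) held a leading one and 342 of the other 950 members (36.0%) did. The octamer was in 60 members (5.19%, 4.05 to 6.62), 5 lost intervals (0.566%) and 1.77% of the windows. TGACATCA was in 70 members (6.05%, 4.82 to 7.57), 12 lost intervals (1.36%) and 1.01% of the windows. The AP-1 and κB groups held the octamer in 3.42% and 8.07%, and TGACATCA in 5.21% and 7.45%. Both 8-letter words were picked after their values were seen. The CRE itself is the site that cyclic AMP signalling uses through CREB. It was rare, in 15 members (1.30%, 0.787 to 2.13), 0 of 884 lost intervals and 0.108% of the windows. The AP-1 and κB groups held the CRE in 1.45% and 1.24%. The 15 members with a CRE had a control median of 54.4 reads.

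The PU box and MEF2 were less frequent in the members than in lost intervals. The PU box, GAGGAAGT, was in 65 members (5.62%, interval 4.43 to 7.10), against 144 lost intervals (16.3%, 14.0 to 18.9) and 1.19% of the windows. The 7-letter word with the largest deficit in the members was ACTTCCT, the reverse complement of a stretch inside the PU box, with 177 members (15.3%) and 286 lost intervals (32.4%). MEF2, a motif of AT-rich sequence, was in 4.06% of the members and 9.73% of the lost intervals. RUNX, TGTGGTT, was in 9.42% and 11.7%, with overlapping intervals. For C/EBP, another motif of macrophage lineage factors, the shares were 2.42% (1.68 to 3.48) and 2.26% (1.47 to 3.47). The κB group held the PU box in 11.2% (7.19 to 16.98), and the AP-1 group in 3.24% (2.37 to 4.42). CTCF was in 0 of 1157 members, with an upper limit of 0.331%, beside 0.0935% of the windows.

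With the size of the difference, the 3 features followed here mostly had overlapping intervals. The share of members with a leading near-AP-1 word was 34.9% where the difference was under 1, 36.2% from 1 to 1.5, 35.2% from 1.5 to 2, 31.9% from 2 to 2.5 and 38.2% from 2.5 upwards, with overlapping intervals. The share with a flanking AP-1 consensus was 34.0% (interval 28.3 to 40.3) under 1 and was met in 27 of 135 members (14.1% to 27.5%) from 2 to 2.5, and in 16 of 68 members (15.03% to 34.9%) from 2.5 upwards, which overlaps the first bin. For CACCCAC the share was 15.1% (11.1 to 20.2) under 1 and was met in 17 of 68 members (16.2% to 36.4%) from 2.5 upwards, with overlapping intervals. The control level moved with these bins, from a median of 80.6 reads under 1 to 8.22 reads from 2.5 upwards, and its part in these shares was not tested apart from the difference.

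**Figure D4:**
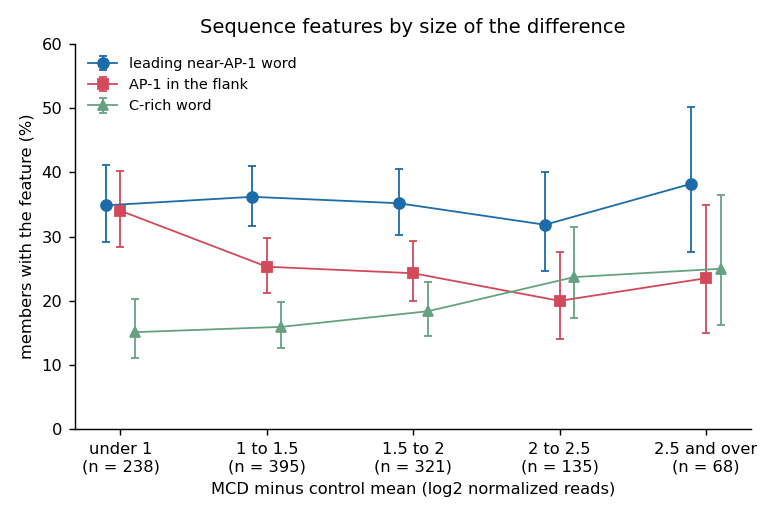
Share of members (vertical axis, percent) with a leading near-AP-1 word (blue), an AP-1 consensus within 200 bp outside the interval (red) and the C-rich word CACCCAC (green), by the difference of the condition means in log2 normalized reads (horizontal axis). Bars are 95% Wilson intervals. Blue points stay between 31.9% and 38.2%, and the red point is highest, at 34.0%, where the difference is smallest.

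By annotation, 600 members (51.9%, interval 49.0 to 54.7) had their centre in an intron, 488 (42.2%) between genes and 69 (5.96%) in an exon. Introns held 54.0% of the AP-1 group and 50.0% of the lost group. The median distance to the nearest TSS was 26296 bp, with 243 members within 10 kb and 1017 (87.9%) within 100 kb. Upstream of that TSS lay 467 (40.4%).

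The members were grouped along the genome more than the AP-1 intervals. Another gained interval lay within 10 kb of 339 members (29.3%, interval 26.7 to 31.99), against 19.6% of the AP-1 group (230 of 1171) and 24.8% of the κB group. Without the members at the 16 genes that have 4 or more of them, the members' share was 25.2% (22.7 to 27.9). In the lost group 13.1% (11.1 to 15.5) had another lost interval that close, and 2.71% had a gained one. A lost interval lay within 10 kb of 10 members (0.864%). Another member was that close for 205 (17.7%), and a distal AP-1 interval for 138 (11.9%). The 543 members (46.9%) without another gained interval within 50 kb held a leading near-AP-1 word in 39.96% (35.9 to 44.1) and had an AP-1 consensus in the flank in 30.2%. In the other 614 these shares were 31.1% (27.6 to 34.9) and 22.5%.

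Some genes were nearest to many members, up to 14 at Nfkb1. The members were nearest to 897 genes, which is 4.01% of the genes in the annotation used, and 735 of these had a single member. The nearest TSS does not tell which gene an interval acts on, and genes in sparse regions collect more intervals. The 97 members at the 16 genes with 4 or more had a median of 15.9 reads in control and 57.6 after MCD, and their median difference was 1.71. A leading near-AP-1 word was in 22 of them (22.7%, interval 15.5 to 31.96), against 386 of the other 1060 (36.4%, 33.6 to 39.4), and a flanking AP-1 consensus was in 13 (13.4%) against 27.3%.

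At 3 of these 16 genes, all known from NF-κB signalling and singled out after their values were seen, the members lack the κB consensus by the rule. Nfkb1, which encodes a DNA-binding subunit of NF-κB, had 14 members, 13 of them inside the gene, and the differences were between 1.07 and 2.01. Most started from 10.46 to 18.5 reads in control and reached 36.9 to 62.9 after MCD. The exceptions were intervals at chr3:135628747-135628947, with 57.1 and 119.6 reads, and at chr3:135582534-135582734, with 39.8 and 98.1. The locus also held 6 other gained intervals, 2 with AP-1, 1 with κB and 3 within 3 kb of a TSS. Malt1, the paracaspase that relays antigen receptor signals to NF-κB, had 9 members and no other gained interval. The largest difference there, 3.05, was in an intron and rose from 5.53 to 45.9 reads. Nfkbiz, which encodes a nuclear regulator of NF-κB target genes, had 7 members with differences of 1.27 to 2.58, among them chr16:55809477-55809677 with 44.1 reads in control and 165.9 after MCD. At these 3 loci 1 of 30 members held a leading near-AP-1 word (3.33%, interval 0.591 to 16.7), 0 held CACCCAC and 5 had a flanking AP-1 consensus.

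The other 13 genes had 4 to 7 members each. Bcl2l11, which encodes the death-promoting protein Bim, had 7 members, of which 4 held a leading near-AP-1 word and 3 held CACCCAC. At Ado and at Dusp4, 3 of 5 members each held such a near-AP-1 word, and at Src 2 of 4. Among the 7 members at Pcdh7, a protocadherin gene, 5 held a leading near-AP-1 word, all 7 lay in introns, and the smallest difference was 0.82. Cd44, the hyaluronan receptor, had 7 members with differences of 1.66 to 2.86. Its most changed member, chr2:102833059-102833259, carries TGAATCA and went from 4.31 to 31.2 reads. Hivep3, Mrpl39, Ado, Trib1, Pdgfb and Dusp4 had 5 members each, and Glrx, Fnbp1l, Src and Hmgcs1 had 4 each.

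**Figure D5:**
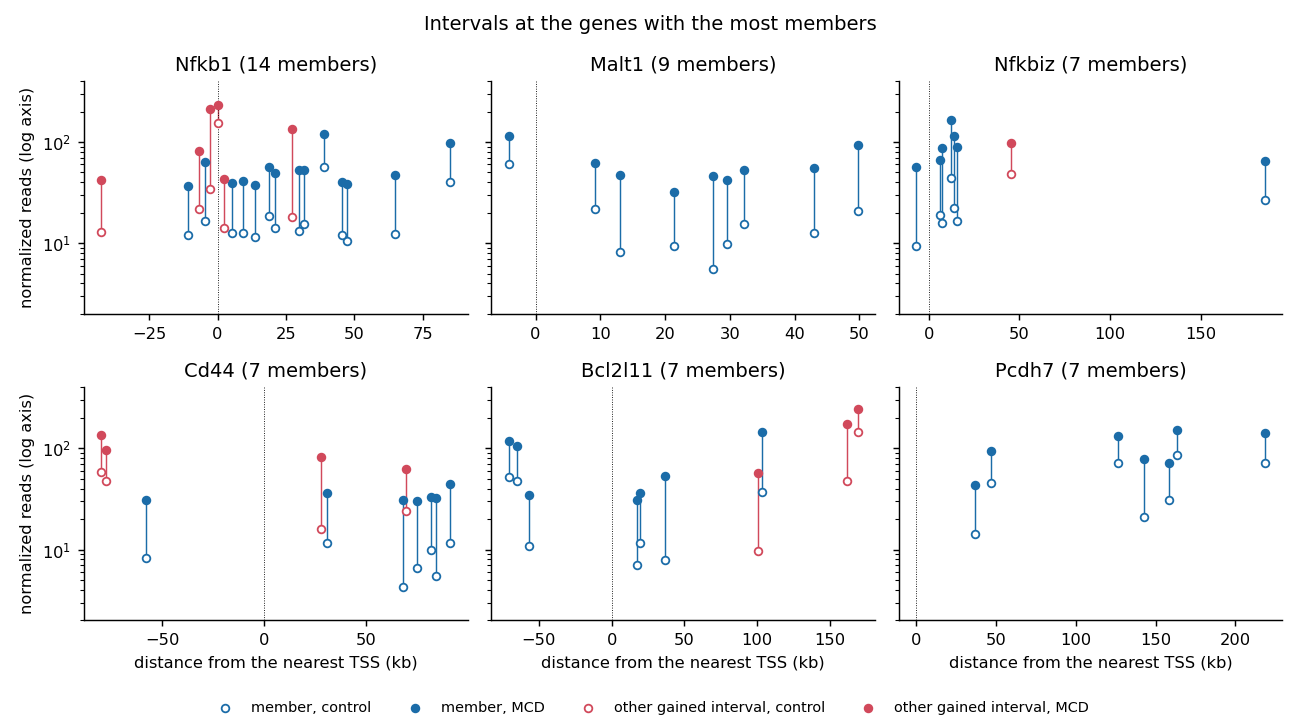
Normalized reads (log axis) in control (open circles) and after MCD (filled circles) for gained intervals at the 6 genes with the most members, by distance from the nearest TSS of the gene in kb (negative, upstream). Blue marks members and red other gained intervals, and each vertical line joins the 2 means of an interval. At Nfkb1 most members rise from 10.46 to 18.5 reads to 36.9 to 62.9.

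Of 15 NF-κB subunits and inhibitors, 6 were nearest to a member (interval of the share 19.8% to 64.3%), beside 4.01% of all genes, and 0 had a lost interval. Beside Nfkb1 and Nfkbiz, these were Rel, Tnfaip3, Traf1 and Otulin, with 1 member each. The Traf1 member, near a gene for an adaptor of TNF receptors, went from 28.6 to 130.2 reads. The Otulin member, near a gene for a deubiquitinase of linear chains, had 167.4 reads in control and 260.3 after MCD. The 25 members of these 6 genes had a median difference of 1.80, beside 1.43 over all members, and 2 of them held a leading near-AP-1 word.

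Immediate early genes, which respond to stimulation without new protein synthesis, were nearest to a member in 11 of 21 cases (52.4%, interval 32.4 to 71.7), beside 4.01% of all genes. This was the largest share among the 12 gene lists. Its interval overlaps those of other lists, such as 27.6% to 62.7% for regulators of myeloid identity. Of the 21, 15 had a gained interval of any kind and 4 had a lost one, counts without a share of all genes beside them. Trib1, a pseudokinase gene, had 5 members and Btg1, an antiproliferative gene, had 3. The most changed Btg1 member went from 27.7 to 157.0 reads and the most changed Csrnp1 member from 17.1 to 105.4. Myc, Klf4, Klf6 and Egr2 had 1 member each. Klf4 also had 6 lost intervals, and Btg1 had 2. The Myc member lay 466029 bp from its TSS.

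AP-1, ATF and MAF factor genes had lost intervals at 3 of 19 genes. Members were at 4 of the 19 (21.1%, interval 8.51 to 43.3), beside 4.01% of all genes. Fosl2, a Fos family gene, had 3, with differences of 1.81 to 2.87, and 0 of them held a leading near-AP-1 word. Atf3 had 2, and Batf and Bach2 had 1 each. Among phosphatases that switch off MAP kinases, Dusp4 had 5 members, Dusp5 had 2 and Dusp8 had 1. These were 3 of 8 genes (37.5%, interval 13.7 to 69.4), beside 4.01% of all genes.

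Cytokine and chemokine genes were nearest to a member in 8 of 23 cases (34.8%, interval 18.8 to 55.1), beside 4.01% of all genes. Il1a and Osm had 3 members each, and Ccl3, Ccl4 and Cxcl2 had 2 each. The most changed Il1a member went from 51.7 to 184.8 reads and the most changed Ccl3 member from 87.0 to 221.7. Il1b, Csf1 and Lif, a gene for an interleukin-6 family cytokine, had 1 each, and the Lif member, 3850 bp from the TSS and inside the gene, went from 10.498 to 67.2 reads.

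Among regulators of myeloid identity, 12 of 27 genes had a member (44.4%, interval 27.6 to 62.7), beside 4.01% of all genes, with a median difference of 1.15 over 20 members. Lost intervals were at 6 of the 27, among them Maf, with 4 lost intervals and 2 members, Mitf, with 2 of each, and Runx1, Cebpa and Zeb2, with 1 lost interval each. Cebpb and Runx1 had 3 members each. Spi1, which encodes PU.1, had 1 inside the gene, 5600 bp from the TSS, with 23.5 reads in control and 98.5 after MCD. The Cebpd member lay 97049 bp away and went from 14.4 to 93.7 reads.

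Adhesion and matrix genes had lost intervals at 2 of 18 genes and members at 6 (33.3%), beside 4.01% of all genes. Those with members included Cd44 and Spp1, the osteopontin gene, whose more changed member went from 19.2 to 129.0 reads. Sterol genes, some of which the loss of cholesterol is known to induce, had lost intervals at 2 of 28 genes. Members were at 3 of the 28 (10.7%, interval 3.71 to 27.2), an interval that holds the 4.01% of all genes. Hmgcs1, an early enzyme of cholesterol synthesis, had 4 with differences of 1.29 to 1.67, Msmo1 had 1 with a difference of 1.98, and the last was the Cyp51 interval in Akap9. Of 22 chromatin enzyme genes, 3 had a lost interval, and Kdm6b, Kdm7a and Hdac7 had 1 member each. The share of these genes with a member was 13.6% (interval 4.75 to 33.3), beside 4.01% of all genes. The Kdm6b member lay inside this gene for the histone demethylase Jmjd3, 3669 bp from a TSS, and had 157.4 reads in control and 243.1 after MCD, a difference of 0.63, close to the smallest difference of the members. Of 8 osteoclast marker genes, Dcstamp had 1 member, and the interval of this share, 2.24% to 47.1%, holds the 4.01% of all genes.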

How the data were processed

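ATAC-seq of RAW264.7 macrophages compared 2 control samples with 2 samples given 5 mM MCD for 1 hr, grouped by their titles. Reads were aligned to GRCm38 (mm10) with Bowtie2 2.4.4, after cutadapt 2.6, and duplicates were removed with Picard. The study's methods name MACS2 as the peak caller, the submitters' processing notes name MACS3 3.0.0, and R 4.0.2 and deepTools 3.5.1 are listed too. The conditions were compared by the authors in Diffbind. The normalization, the treatment of the Tn5 offset and any pooling for peak calling are not given in the sources used here, and each can shift a mean. The deposited values used are the authors' condition means on the log2 scale, 1 per condition, so their depth is unknown and the precision of a mean cannot be given. The other deposited columns hold the authors' overall mean, fold change, p-value and FDR of the comparison and were not used. A mean of n log2 units is printed as 2 to the power n where reads are given.

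Intervals were annotated with GENCODE M21, using TSS of transcripts of its basic set with an Entrez identifier, and genes were assigned by the nearest TSS. Sequences came from RefSeq's GRCm38.p6 through pysam 0.24.0 and samtools 1.23.1, in Python 3.11.15 with numpy 2.4.6, pandas 2.3.3, scipy 1.17.1 and matplotlib 3.10.9. Motifs were sought on both strands. Beside the rule, 26 motifs and all 7-letter words were counted. The κB consensus and the AP-1 consensus, and the words that overlap each other, share matches in part. The genome windows were non-overlapping. The counting was tested on simulated sequences.

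Named were the 10 largest differences, the 5 highest MCD means, the members nearest to each threshold, genes with 4 or more members, listed genes with a member, and the 7-letter words leading 2 rankings. The 12 gene lists and the members were chosen with earlier results of these data known. Octamer, TGACATCA and the 3 leading near-AP-1 words as a group were picked after their values were seen. A per-sample comparison by limma was planned and could not be run on condition means.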

Additional observations from a re-analysis of the deposited data

How the results depend on the processing

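The rule was varied in 11 ways, which left between 786 and 1318 members, and of 154 values for 14 results 144 stayed within the interval of the reported value, or within 1.5 times the reported count. With any centre base allowed in the AP-1 consensus, the share of members with an A or T centre was 0% by construction and that with a leading near-AP-1 word was 25.03%. Searching the AP-1 and κB sites in the interval plus 100 bp on each side left 861 members, of which 5.69% had an AP-1 consensus in the flank, part of which the search itself clears. A distal AP-1 gained interval lay within 10 kb of 14.98% of them. For this count the AP-1 intervals were also taken by the wider search. The set of possible neighbours was thus larger by definition, and its part in that rise was not tested. With a control mean of at least 4, the median difference was 1.20, the control median 5.36 and the MCD median 6.64. With a difference of at least 1 these were 1.60, 4.34 and 5.96, and both thresholds act on the values themselves. The share with a leading near-AP-1 word was between 34.3% and 37.9% under the 10 other alternatives. TSS of the comprehensive annotation with an Entrez identifier, tried after seeing the data, gave 1077 members, and so did a promoter distance of 5 kb. No paired analysis was possible because the values used are 1 mean per condition, and for the same reason no sample was left out, no other normalization or tool was tried and no per-sample comparison was run. Depth limits the differences of members with few control reads, whose error is unknown.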
